A study of Mus musculus with 13 samples.

Results

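The 9 genes described here mark GABAergic interneurons, the inhibitory local-circuit neurons of the hippocampus: Gad1, Gad2, Slc32a1, Lhx6, Pvalb, Calb2, Vip, Reln and Nos1. They were taken by symbol as 9 of the 45777 genes of the count table, and all 9 passed the filter on low counts in every comparison. Total RNA of mouse hippocampus was sequenced 3 days after pilocarpine-induced status epilepticus (SE), a prolonged seizure, or after saline. The groups were SE-cKO (Nestin-Cre::Lin28a loxP/loxP mice given pilocarpine, 3 libraries), SE-WT (Nestin-Cre::Lin28a+/+ mice given pilocarpine, 3 libraries), sham-cKO (Nestin-Cre::Lin28a loxP/loxP mice given saline, 4 libraries) and sham-WT (Nestin-Cre::Lin28a+/+ mice given saline, 3 libraries). All mice carried Nestin-Cre, which acts in neural progenitors and therefore in the neurons and macroglia that descend from them, and were 6 weeks old at injection. The study used males, given 260 mg/kg of pilocarpine, and females, given 280 mg/kg, after scopolamine methyl nitrate and terbutaline, and ended the seizures with diazepam. Only mice that developed SE were kept in the SE groups. The labels call the libraries biological replicates and give no sex.

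GABA is made from glutamate by the 2 glutamate decarboxylases encoded by Gad1 (GAD67) and Gad2 (GAD65), and is loaded into synaptic vesicles by the transporter encoded by Slc32a1 (VGAT). All interneurons share these 3 genes, whereas the other 6 divide them into classes. Cells born in the medial ganglionic eminence of the embryo depend on the LIM-homeodomain factor LHX6 and include the fast-spiking basket cells with the calcium buffer parvalbumin (Pvalb), while cells with the peptide VIP, and many with calretinin (Calb2), come from the caudal ganglionic eminence. Reelin (Reln) is secreted by interneurons of the dendritic layers and by Cajal-Retzius cells, and neuronal nitric oxide synthase (Nos1) marks neurogliaform, ivy and projecting GABAergic cells. These genes are not confined to interneurons: calretinin is also made by mossy cells and by newborn granule cells of the mouse dentate gyrus, and Nos1 is found in some pyramidal cells. In homogenized tissue, fewer cells of a type and less RNA per cell cannot be told apart.

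The regions before the start sites of Pvalb and Reln, the 2 members that passed the test after SE, are shown because they differ in kind. Sequences were those of RefSeq on GRCm38.p6, where 8 of the 9 members had a promoter entry, and only the 250 bases before the annotated start are printed, 5′ to 3′ on the strand of the gene. The Pvalb window lies on the minus strand of chromosome 15 (chr15:78206401-78206650), before a gene that spans 78191112 to 78206400. The Reln window lies on the minus strand of chromosome 5 (chr5:22344706-22344955), before a gene that spans 21884454 to 22344705. Capitals mark TATTTAA in Pvalb and GGGCGG in Reln, motifs that were searched on both strands and do not overlap each other.
Pvalb: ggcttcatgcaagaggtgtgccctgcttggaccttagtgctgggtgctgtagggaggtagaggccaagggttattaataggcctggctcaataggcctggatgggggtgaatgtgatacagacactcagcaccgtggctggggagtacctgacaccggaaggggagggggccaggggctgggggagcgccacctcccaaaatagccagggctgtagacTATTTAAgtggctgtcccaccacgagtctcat
Reln: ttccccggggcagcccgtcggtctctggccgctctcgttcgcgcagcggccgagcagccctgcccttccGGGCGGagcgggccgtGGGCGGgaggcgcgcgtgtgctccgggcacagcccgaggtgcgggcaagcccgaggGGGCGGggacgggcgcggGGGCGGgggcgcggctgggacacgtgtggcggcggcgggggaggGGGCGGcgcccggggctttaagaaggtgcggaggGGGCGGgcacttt
The Pvalb window held 4 CpG dinucleotides and 1 TATTTAA, a sequence of the TATA type that 4.18% of 32851 windows of the same length contained, and no GGGCGG. The Reln window held 37 CpG, more than 97.8% of windows, was 80% G and C, and contained 6 copies of GGGCGG, the core of the GC box, which 32.7% of windows held at least once. The median window had 6 CpG and 52.4% G and C. These are matches of letters, and no binding was measured.

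Totals of the 13 libraries lay between 59659977 and 84354243 counts. Lin28a had 3 counts in SE-WT replicate 3 and 0 in the other 12 libraries, so the deletion could not be read from it. In one library, 3 counts are 0.0364 to 0.0506 CPM (counts scaled to the TMM-adjusted library total). Counts of replicates differed by 51.3 to 468 times the sampling variance, so no library was a copy of another. SE-WT replicate 3 and SE-cKO replicate 3 were titled in another style than the other libraries and had 4.83% and 3.92% of counts on mitochondrial ribosomal RNA, against 0.486% to 1.66% elsewhere.

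In 3 libraries, marker genes of regions beside the hippocampus were high, the striatum, where nearly all neurons are GABAergic, and the thalamus. In SE-WT replicate 2, 12 striatal genes summed to 2218 CPM, against 115 to 198 CPM in the other 12 libraries. Drd1, the dopamine receptor of direct-pathway striatal neurons, stood at 199.9 CPM there, against 6.12 to 26.5 CPM elsewhere, and Lhx8, a factor of forebrain cholinergic neurons, at 10.2 CPM. A list of 9 thalamic genes, one of which is Calb2, summed to 2369 CPM in sham-cKO replicate 2 and to 1397 CPM in SE-WT replicate 3, against 194 to 332 CPM in the other libraries. Without Calb2 the sums were 2270 CPM in sham-cKO replicate 2 and 1350 CPM in SE-WT replicate 3, against 187 to 324 CPM in the rest. Choroid plexus genes also varied between libraries. They summed to 4417 CPM in sham-WT replicate 3, 2657 CPM in sham-cKO replicate 3, 1442 CPM in sham-WT replicate 2 and 1185 CPM in SE-cKO replicate 1. Elsewhere they summed to 18.7 to 650 CPM, and no fit left out the libraries high in them as a set. Some results that rest on SE-WT replicate 2, SE-WT replicate 3 or sham-cKO replicate 2 are given with and without that library, but not all. Nhlh2 and Vipr2, for example, are given only with all libraries in. For Calb2 and Adarb2 in SE-cKO against sham-cKO, the fold change without sham-cKO replicate 2 is given only within a range. A value without a second fit may therefore still rest on 1 of these libraries.

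**Figure D1:**
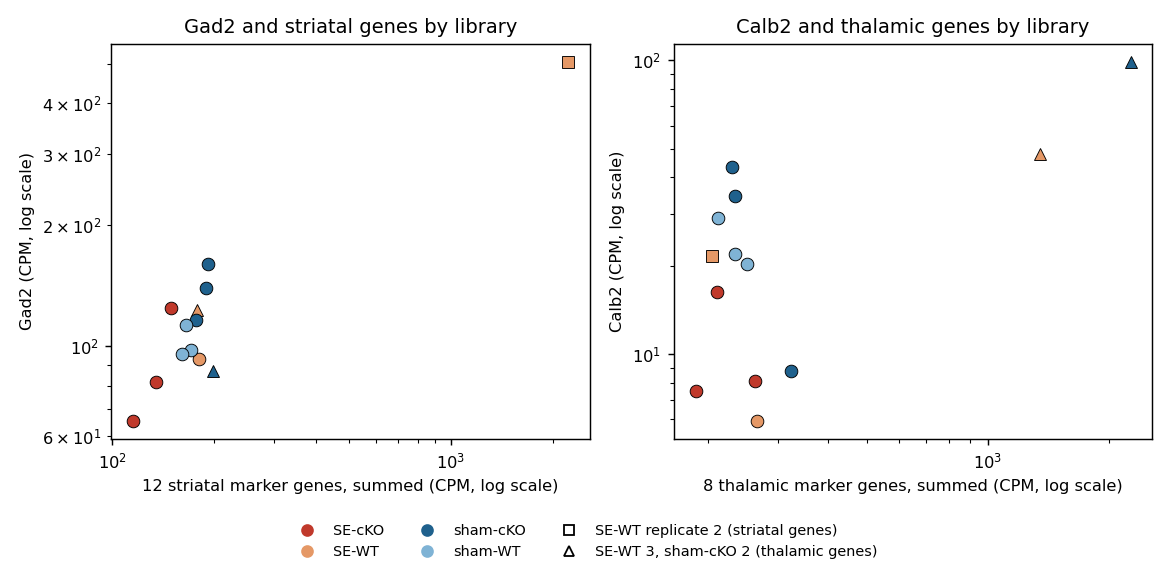
Gad2 (CPM) against the summed CPM of 12 striatal genes, and Calb2 (CPM) against the summed CPM of 8 thalamic genes without Calb2, both on log axes, with 1 point per library coloured by group. SE-WT replicate 2 stands apart at 505 CPM of Gad2 and 2218 CPM of striatal genes, and sham-cKO replicate 2 and SE-WT replicate 3 have the 2 highest Calb2 levels, 98.8 and 47.8 CPM.

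Levels were compared between genes in TPM, the deposited transcript abundances that take gene length into account. In SE-cKO hippocampi Gad1 was the most abundant at 71.9 ± 24.9 TPM (SD, n = 3), followed by Gad2 at 21.6 ± 9.70 TPM, Pvalb at 18.7 ± 2.25 TPM and Reln at 11.3 ± 2.34 TPM. Vip at 10.9 TPM, Calb2 at 9.51 TPM and Slc32a1 at 6.65 TPM came next with overlapping ranges, then Nos1 at 4.46 TPM and Lhx6 at 1.83 TPM. In sham-WT hippocampi Gad1 stood at 99.6 ± 24.0 TPM (SD, n = 3) and Pvalb at 38.9 ± 8.41 TPM, with no overlap between them or with Gad2 at 22.7 ± 4.25 TPM. Gad2, Reln at 20.7 TPM, Calb2 at 20.3 TPM and Vip at 19.8 TPM were neighbours whose ranges overlapped there, and Nos1 at 8.27 TPM, Slc32a1 at 5.495 TPM and Lhx6 at 3.07 TPM closed the order. In SE-WT hippocampi Gad1 averaged 129 TPM and Gad2 52.6 TPM, and 7 pairs of neighbours in the order overlapped, which left only Nos1 at 6.17 TPM apart from Lhx6 at 3.23 TPM. In sham-cKO hippocampi Calb2 came second at 43.1 TPM with a range of 8.94 to 86.5 TPM, after Gad1 at 113 TPM and ahead of Pvalb at 41.0 TPM. Gad1 thus led and Lhx6 closed the order in all 4 groups, while the middle of the order moved with single libraries.

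**Figure D2:**
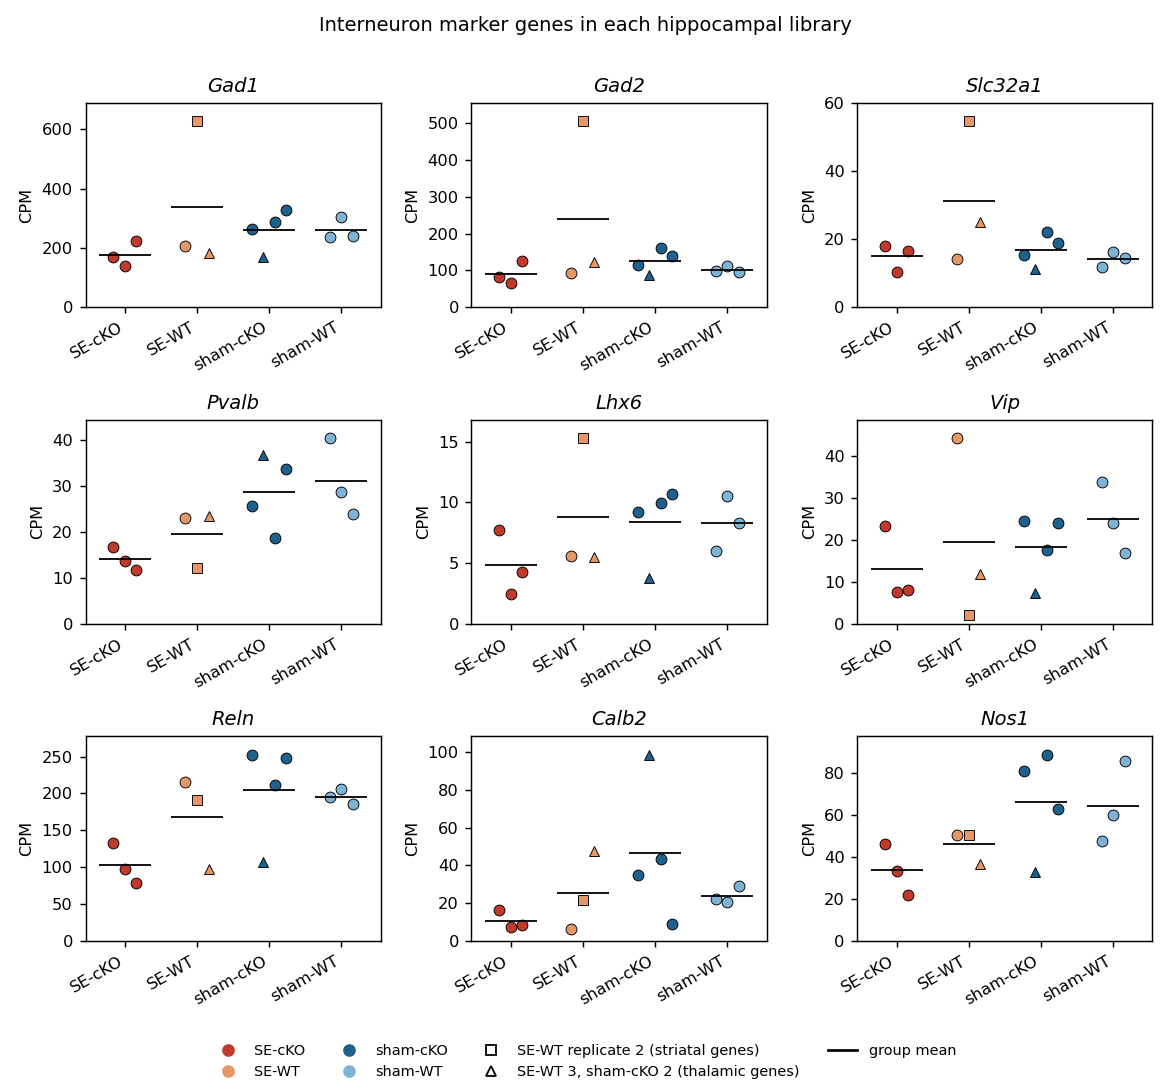
CPM of each of the 9 genes in every library, on linear axes that start at 0, with a line at the mean of each group. Squares mark SE-WT replicate 2, and triangles mark SE-WT replicate 3 and sham-cKO replicate 2. Gad1, Gad2 and Slc32a1 are highest in the square, and Pvalb is lower after SE in both genotypes without overlap.

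The comparison of SE-cKO with sham-cKO asks which genes differed after SE in mice without Lin28a in neural lineages. Of the 9 members, 2 fell, Pvalb and Reln, none rose, and all 9 fold changes were below 0, with a median of -0.83 on the log2 scale. Over all 21307 genes tested the median was -0.00059 and 50.1% were below 0. edgeR's quasi-likelihood test with Benjamini-Hochberg adjustment called 22.7% of all genes, 13.8% higher and 8.92% lower, so the share of members called was near that of all genes called in either direction. At an unadjusted p under 0.05, 5 members were lower (Gad1, Pvalb, Reln, Calb2 and Nos1), and DESeq2 called 4 (Pvalb, Reln, Calb2 and Nos1).

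The 3 shared GABA genes did not pass the test in cKO mice. Gad1, the decarboxylase that supplies most of the cell's GABA, stood at 169, 138 and 222 CPM in SE-cKO, against 262, 169, 286 and 326 CPM in sham-cKO. Its log2 fold change was -0.59 ± 0.24 (SE, adjusted p = 0.115). The groups overlapped through sham-cKO replicate 2, the library high in thalamic genes, and without it the fold change was -0.77 with an adjusted p of 0.0260. Gad2, the synaptic decarboxylase, stood at 81.9, 65.4 and 125 CPM in SE-cKO, against 116, 87.1, 160.3 and 139.6 CPM in sham-cKO (-0.50 ± 0.26, adjusted p = 0.214). Slc32a1, the vesicular transporter, showed 18.0, 10.4 and 16.4 CPM in SE-cKO, against 15.3, 11.3, 22.1 and 19.0 CPM in sham-cKO. With a log2 fold change of -0.21 ± 0.27 (SE, adjusted p = 0.642) it was the member whose value lay nearest to 0, and both of these genes overlapped widely between the groups.

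Among the genes of the medial ganglionic eminence, Pvalb fell and Lhx6 did not pass. Pvalb stood at 16.8, 13.7 and 11.8 CPM in SE-cKO, against 25.7, 36.8, 18.7 and 33.8 CPM in sham-cKO. Every SE-cKO library was below every sham-cKO library, which was true of 14.4% of all genes tested. The means were 14.1 ± 2.52 CPM in SE-cKO (SD, n = 3) and 28.7 ± 8.16 CPM in sham-cKO (SD, n = 4), 49.0% of the sham level, with a log2 fold change of -1.05 ± 0.25 (SE, adjusted p = 0.0164). Leaving out SE-cKO replicate 2 gave -1.03 with an adjusted p of 0.0632, and leaving out SE-cKO replicate 3 gave -0.92 with 0.0577. It remained called with any other library left out. Lhx6, the transcription factor, was low throughout, at 7.72, 2.47 and 4.28 CPM in SE-cKO, against 9.19, 3.78, 9.94 and 10.7 CPM in sham-cKO. The groups overlapped and the log2 fold change was -0.83 ± 0.45 (SE, adjusted p = 0.239).

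Reln, which encodes a secreted glycoprotein that positions neurons during development and acts at synapses in the adult, was the other gene to fall. It stood at 132.3, 97.2 and 77.6 CPM in SE-cKO, against 252, 106, 211 and 248 CPM in sham-cKO. The mean was 102 ± 27.7 CPM in SE-cKO (SD, n = 3) and 204 ± 67.9 CPM in sham-cKO (SD, n = 4), with a log2 fold change of -1.02 ± 0.31 (SE, adjusted p = 0.0450). One sham library, again replicate 2, lay among the SE values. The call was narrow: the adjusted p was 0.0911, 0.0832 and 0.0909 without sham-cKO replicate 1, 3 or 4, and 0.137 and 0.140 without SE-cKO replicate 2 or 3, at fold changes of -1.01 to -0.83. Of 8 genes listed for Cajal-Retzius cells, the other source of reelin, 7 had fold changes below 0 and 1 above, with a median of -0.89. Reln and Calb2 belong to that list, and Reln was its 1 call. The list summed to 114 to 182 CPM in SE-cKO and to 242 to 347 CPM in sham-cKO, without overlap. Reln was the largest part of this sum in each library, with 132.3 of 182 CPM in SE-cKO replicate 1. In sham-cKO replicate 1 it was 252 of 347 CPM. Each gene was also set against its own sham average in log2 CPM. The median gene then lay at -0.77 to -0.44 in SE-cKO and at 0.085 to 0.67 in sham-cKO, again without overlap. Neither score was recomputed without Reln and Calb2, so neither is separate from the values of these 2 members. Ndnf, which neurogliaform cells share, had a log2 fold change of -0.75 (adjusted p = 0.0566). Nhlh2 was at -1.29 (adjusted p = 0.278), with 0.600, 0.721 and 1.72 CPM in SE-cKO, against 1.26, 6.34, 0.969 and 1.11 CPM in sham-cKO. Its 1 high value was that of sham-cKO replicate 2, the library high in thalamic genes. Trp73 (p73) was at -0.46 (adjusted p = 0.505), with 2.81, 1.76 and 0.912 CPM in SE-cKO, against 2.32, 1.48, 3.21 and 2.90 CPM in sham-cKO. Lhx1 and Lhx5 were at or below 0.435 CPM in these 7 libraries. The part of these cells in the Reln values was not tested.

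Calb2, a calcium buffer like parvalbumin, had the lowest fold change of the 9 and the widest spread. It stood at 16.3, 7.47 and 8.12 CPM in SE-cKO, against 34.6, 98.8, 43.3 and 8.77 CPM in sham-cKO. The log2 fold change of -2.15 ± 0.70 (SE, adjusted p = 0.0602) rested on a sham group in which the highest library, replicate 2, was the one high in thalamic genes, and the lowest, replicate 4, lay among the SE values. Without replicate 4 the fold change was -2.52 with an adjusted p of 0.0112, the only call among the 7 fits that left out a library. Calb2 was not called without replicate 2. Over these 7 fits its fold change ran from -2.57 to -1.50. Nos1, which makes nitric oxide in neurons, showed 46.2, 33.3 and 21.6 CPM in SE-cKO, against 80.8, 32.7, 88.7 and 62.9 CPM in sham-cKO. Its log2 fold change was -1.002 ± 0.36 (SE, adjusted p = 0.0836), and without sham-cKO replicate 2, its lowest sham value, it was -1.25 with an adjusted p of 0.0121. Vip, a peptide of disinhibitory interneurons, had 23.3, 7.70 and 8.15 CPM in SE-cKO, against 24.4, 7.42, 17.6 and 24.0 CPM in sham-cKO. The 2 groups covered nearly the same range, and the log2 fold change was -0.51 ± 0.50 (SE, adjusted p = 0.527).

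Sham-cKO replicate 2 was thus the lowest sham-cKO library for Gad1, Gad2, Slc32a1, Lhx6, Vip, Reln and Nos1, and the highest for Pvalb and Calb2. With these 3 libraries (SE-WT replicates 2 and 3 as well) out of a fit of all groups, 4 members were lower in SE-cKO (Gad1, Pvalb, Reln and Nos1), where 21.6% of genes were called. Pan-neuronal genes moved in the same direction: 10 of them, Rbfox3 and Snap25 included, summed to 3669 to 5078 CPM in SE-cKO and to 5872 to 6468 CPM in sham-cKO. Of these 10, 2 fell (Syt1 and Eno2), none rose, and the median log2 fold change was -0.47. Markers of CA pyramidal cells were lower still: 5 of 9 tested fell, none rose, and the median was -1.51. Of 10 granule cell markers, 4 fell and none rose, with a median of -0.51. All 7 microglial markers rose, with a median of 2.12. The part of these shifts in the values of the 9 members was not tested.

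**Figure D3:**
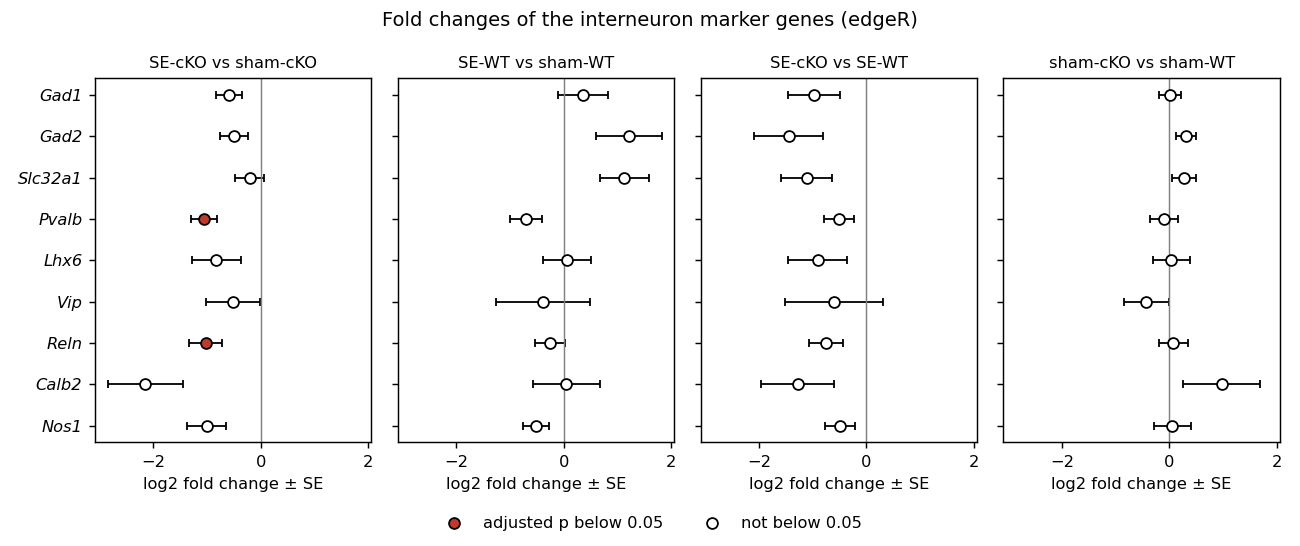
Log2 fold change with its standard error from edgeR for the 9 genes in 4 comparisons, with a grey line at 0. Filled points have an adjusted p below 0.05, which are Pvalb and Reln in SE-cKO against sham-cKO.

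The comparison of SE-WT with sham-WT asks the same in mice with intact Lin28a. None of the 9 members was called, where edgeR called 5.4% of 20803 genes, 4.57% higher and 0.832% lower. At an unadjusted p under 0.05 there was 1 member, Slc32a1, and DESeq2 called 0. The median of the members was 0.05 on the log2 scale, beside 0.02 over all genes tested.

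Pvalb had 23.0, 12.2 and 23.5 CPM in SE-WT, against 40.5, 28.8 and 23.9 CPM in sham-WT. The groups did not overlap, as for 11.9% of all genes in this direction, but the nearest values lay close together. The mean was 19.6 ± 6.42 CPM in SE-WT and 31.1 ± 8.52 CPM in sham-WT (SD, n = 3 each), with a log2 fold change of -0.70 ± 0.30 (SE, adjusted p = 0.242). The lowest SE-WT value was that of replicate 2, the library high in striatal genes. With a library left out, the fold change ran from -0.86 to -0.44. No other member was free of overlap in either SE comparison.

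The GABA genes of WT mice turned on 1 library. Gad1 had 205, 626 and 182 CPM in SE-WT, against 238, 305 and 239 CPM in sham-WT (0.36 ± 0.47, adjusted p = 0.728). Gad2 had 93.0, 505 and 123 CPM in SE-WT, against 97.9, 113 and 95.7 CPM in sham-WT (1.22 ± 0.61, adjusted p = 0.312). Slc32a1 had 14.2, 54.6 and 25.2 CPM in SE-WT, against 11.9, 16.1 and 14.4 CPM in sham-WT (1.13 ± 0.46, adjusted p = 0.219). In each, SE-WT replicate 2, the library high in striatal genes, was the highest of all 13 libraries. Without it the log2 fold changes were -0.45 for Gad1, 0.05 for Gad2 and 0.45 for Slc32a1, with adjusted p of 0.159, 0.891 and 0.379. Lhx6, which striatal interneurons also express, had 5.56, 15.3 and 5.51 CPM in SE-WT, against 6.02, 10.5 and 8.30 CPM in sham-WT. Its log2 fold change was 0.07, and -0.60 without SE-WT replicate 2.

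Reln had 215, 191 and 97.0 CPM in SE-WT, against 195, 206 and 185 CPM in sham-WT (-0.24 ± 0.28, adjusted p = 0.685). The low value was that of replicate 3. Nos1 had 50.5, 50.6 and 36.7 CPM in SE-WT, against 47.4, 60.0 and 85.6 CPM in sham-WT (-0.51 ± 0.24, adjusted p = 0.286). Calb2 had 5.93, 21.6 and 47.8 CPM in SE-WT, against 22.0, 20.3 and 29.0 CPM in sham-WT. The highest of these was SE-WT replicate 3, high in thalamic genes, and the log2 fold change was 0.05 with it and -0.79 without it. Vip ranged widest in relation to its level, with 44.2, 2.19 and 11.9 CPM in SE-WT, against 33.7, 24.0 and 16.8 CPM in sham-WT. SE-WT replicate 2 held the lowest Vip value of all 13 libraries, and the log2 fold change of -0.39 turned to 0.15 without it. The pan-neuronal genes summed to 4343 to 5713 CPM in SE-WT and 5708 to 6439 CPM in sham-WT, 0 of 10 were called, and all 7 microglial markers rose. Of the CA pyramidal markers 1 of 9 tested fell, with a median of -0.91. Of the granule cell markers 3 of 10 fell, with a median of -0.98.

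The comparison of SE-cKO with SE-WT asks whether the genotypes differed after SE. All 9 members had lower fitted levels in SE-cKO, with log2 fold changes of -1.45 for Gad2 to -0.49 for Nos1 and a median of -0.91, beside 0.00083 over all genes. None was called at adjusted p of 0.518 to 0.910, none had an unadjusted p under 0.05, and DESeq2 called 0. Of 21126 genes, 0% were called by edgeR, 2046 had an unadjusted p under 0.05 and DESeq2 called 508. Every member overlapped between these groups. Gad2 was at -1.45 ± 0.64 with all libraries and at -0.28 without SE-WT replicate 2, Slc32a1 at -1.11 ± 0.48 and at -0.44, and Gad1 at -0.98 ± 0.49 and at -0.16. Calb2 was at -1.28 ± 0.68, and at -0.44 without SE-WT replicate 3. Reln, at -0.75 ± 0.32, stayed between -1.04 and -0.56 with any library left out. With the same 3 libraries left out, which leaves 1 SE-WT library in a fit of all groups, 7 of the 9 were below 0 and the median was -0.24.

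The same contrast in sham mice, sham-cKO against sham-WT, asks what the genotype did without a seizure. None of the 9 was called, at adjusted p of 0.868 to 0.996, with no unadjusted p under 0.05 and 0 calls by DESeq2. Of 20785 genes, 0% were called by edgeR, 1152 had an unadjusted p under 0.05 and DESeq2 called 21. Fold changes ran from -0.43 ± 0.41 for Vip to 0.98 ± 0.72 for Calb2, which was at 0.29 without sham-cKO replicate 2. For the other 7 they lay between -0.10 (Pvalb) and 0.31 (Gad2). Every member overlapped between the 2 sham groups.

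The difference between the SE effect in cKO mice and that in WT mice was tested as an interaction over all 13 libraries, where 0.159% of 22596 genes were called. None of the 9 members was among them, and DESeq2 called 0. All 9 estimates were below 0, with a median of -0.89 beside 0.03 over all genes. Gad2 (-1.71 ± 0.69, adjusted p = 0.332) and Slc32a1 (-1.33 ± 0.55, adjusted p = 0.345) had an unadjusted p under 0.05, and without SE-WT replicate 2 they were at -0.58 and -0.70. For Pvalb, called in cKO and not in WT mice, the difference was -0.36 ± 0.41 (adjusted p = 0.774), and for Reln it was -0.78 ± 0.45 (adjusted p = 0.509). A different response of the genotypes was therefore not shown for either gene.

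Pvalb also differed between libraries by Xist, the RNA of the inactive X chromosome. The study used males, given 260 mg/kg of pilocarpine, and females, given 280 mg/kg, and the labels give no sex. In the SE groups, sex and dose therefore cannot be told apart. Xist stood at 176 to 511 CPM in 6 libraries and at 0 to 2.96 CPM in 7, with both kinds in every group. The Xist-high libraries were SE-cKO replicates 2 and 3, SE-WT replicate 2, sham-cKO replicate 3 and sham-WT replicates 2 and 3. Within each of the 4 groups, every Xist-high library had less Pvalb than every Xist-low library. This was so for 288 of 22596 genes (1.27%), and the opposite order held for 198 (0.876%), while no other member was ordered this way in all 4 groups. The order was noticed in these data and is given as a description. In SE-WT it rests on replicate 2, the only Xist-high library of that group and the library high in striatal genes. Among Xist-high libraries Pvalb was at 11.8 to 13.7 CPM after SE (n = 3) and at 18.7 to 28.8 CPM in sham (n = 3). Among Xist-low libraries it was at 16.8 to 23.5 CPM after SE (n = 3) and at 25.7 to 40.5 CPM in sham (n = 4). In these libraries the SE values of Pvalb thus lay below the sham values at either Xist level, with the genotypes pooled. The share of all genes separated in this way was not computed, and the split was made after Pvalb was seen to follow Xist. With the Xist level as a covariate in a fit of all 13 libraries, the log2 fold change of Pvalb was -0.84 in SE-cKO against sham-cKO (edgeR, adjusted p = 0.00953) and -0.92 in SE-WT against sham-WT (adjusted p = 0.0203). The interaction was then 0.08 (adjusted p = 0.945). Xist was taken up after its values were seen, so this fit is a description too. It was not repeated without SE-WT replicate 2.

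**Figure D4:**
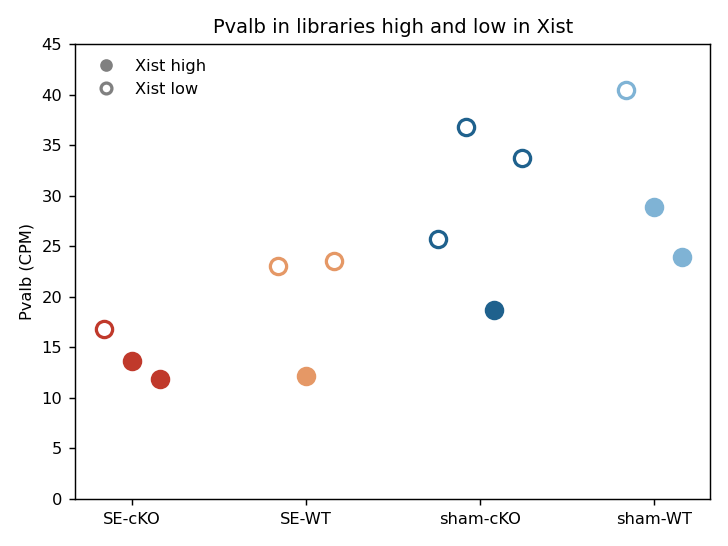
Pvalb (CPM) in each library by group, with filled points for libraries high in Xist (176 to 511 CPM) and open points for those low in Xist (0 to 2.96 CPM). In every group the filled points lie below the open ones, and at each Xist level the SE libraries lie below the sham libraries.

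The members varied together only in part. Over the 13 libraries, deviations of log2 CPM from the group mean correlated at r = 0.95 between Gad1 and Gad2, 0.91 between Gad2 and Slc32a1 and 0.85 between Gad1 and Slc32a1. These fell to 0.83, 0.83 and 0.64 over the 12 libraries without SE-WT replicate 2. Lhx6 followed the mean of the 3 GABA genes at r = 0.81, and at 0.77 without that library, whereas Pvalb ran against it at r = -0.71, and at -0.46 without it. Reln and Nos1 had r = 0.77 with and without that library, and Reln and Vip had 0.42 with it and 0.92 without it. The 5 genes most like the mean of the 3 GABA genes, of 22593 compared, were Papss2 and Gm32810 (both r = 0.95) and Smpd3, Htr1b and Pwwp3b (all 0.94). Without SE-WT replicate 2 the first 5 were Zmynd11, Man1a, Gm33628, Vamp9 and Bysl, and 0 of the 5 were shared, with Papss2 at 0.85 and Htr1b at 0.86. The points share their library, its depth and the tissue that was dissected, so these values are descriptions.

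Genes that work beside the 9 members were followed in 7 lists, with all changes below on the log2 scale. In SE-cKO against sham-cKO, 22 of their 59 tested genes were called, where 22.7% of all genes tested were called. Of 8 genes of GABA uptake, breakdown and supply, 4 fell and 1 rose, with a median of -0.48. Abat, GABA transaminase, stood at 149.8, 106 and 98.2 CPM in SE-cKO, against 247, 319.7, 268 and 224 CPM in sham-cKO (-1.19 ± 0.19, adjusted p = 0.00263). The groups did not overlap, and the call stood with each of the 7 libraries left out. Aldh5a1, succinic semialdehyde dehydrogenase, fell by 0.64, and the glutamine transporter Slc38a3 rose by 0.93 (adjusted p = 0.0192), a call held in 5 of the 7 fits that left out a library. The glial transporter Slc6a11 (GAT3), singled out after its values were seen, was called at -1.75, and at -1.11 (adjusted p = 0.00343) without sham-cKO replicate 2. Its call was lost without any 1 of the SE-cKO libraries, at adjusted p of up to 0.116. Gad1 (-0.59), Gad2 (-0.50) and Slc32a1 (-0.21) were also below 0 in this comparison, without passing the test. A difference between them and the genes of this list was not tested.

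Of the 13 tested genes of the medial ganglionic eminence lineage, 4 rose and 2 fell in SE-cKO, with a median of -0.08. Npy, a peptide of interneurons that granule cells also make after seizures, stood at 64.1, 97.8 and 111.8 CPM in SE-cKO, against 20.7, 10.3, 19.1 and 22.3 CPM in sham-cKO (2.31 ± 0.28, adjusted p = 0.000699). Sox6, which is also found in oligodendrocyte precursors, rose by 1.004. Erbb4, the neuregulin receptor of interneurons, fell by 1.35 (adjusted p = 0.00801), with 79.9, 49.5 and 48.7 CPM in SE-cKO, against 154.6, 93.2, 162.3 and 185 CPM in sham-cKO. The calls of Npy, Sox6 and Erbb4 stood with each library left out. Sst (somatostatin), which marks another class of these cells, had 58.4, 30.2 and 58.3 CPM in SE-cKO, against 63.3, 26.5, 64.3 and 48.7 CPM in sham-cKO, and did not pass the test (-0.08, adjusted p = 0.904). Of the 7 tested transcription factors of GABAergic fate, only the antisense RNA Dlx6os1 fell (-1.21, adjusted p = 0.0162), a call lost without SE-cKO replicate 2 or 3 (adjusted p up to 0.0583).

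Of 14 genes of the caudal ganglionic eminence lineage, 3 fell and 1 rose in SE-cKO, with a median of -0.69. The peptide gene Cck fell by 0.98, Lamp5, a membrane protein of neurogliaform cells, by 1.31 and Adarb2 by 1.53, while Id2 rose by 0.71. Adarb2 lost its call without any 1 of the SE-cKO libraries (adjusted p up to 0.0700), and the other 3 did not lose it with any library left out. Sham-cKO replicate 2, high in thalamic genes, had 94.9 CPM of Adarb2, against 33.2 to 41.0 CPM in the other sham-cKO libraries. With a library left out, the fold change of Adarb2 ran from -1.69 to -1.08. Downstream of reelin, Itgb1 (integrin beta 1, present in most cells) rose by 1.29 and the other 4 of 5 did not pass, among them the adaptor Dab1 at -0.67 (adjusted p = 0.126). Around nitric oxide, 4 of 9 genes fell and 1 rose, with a median of -0.59. Gucy1b1, the beta subunit of the nitric oxide receptor guanylate cyclase, stood at 92.8, 88.7 and 92.0 CPM in SE-cKO, against 166.6, 149.5, 164 and 164 CPM in sham-cKO (-0.85 ± 0.09, adjusted p = 0.000439). Gucy1a2, an alpha subunit, fell by 1.05, and both calls stood with each library left out, whereas those of Dlg4 (-0.59) and Nos3 (0.70) were lost without most single libraries, at adjusted p of up to 0.0910 for Dlg4 and 0.0934 for Nos3. None of the 3 receptors for VIP was called. At an unadjusted p under 0.05 there was 1, Adcyap1r1, which DESeq2 also called.

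In SE-WT against sham-WT, 5 of 59 tested genes of these lists were called, where 5.4% of all genes tested were called. Ndnf fell by 1.17 (adjusted p = 0.00830), Sst by 0.53 (adjusted p = 0.0357) and Dab1 by 0.66 (adjusted p = 0.0217), and Sox6 rose by 0.79 (adjusted p = 0.0487) and Itgb1 by 0.67 (adjusted p = 0.0234). Sst stood at 44.9, 42.6 and 45.9 CPM in SE-WT, against 59.6, 62.6 and 67.3 CPM in sham-WT, without overlap. Each of these 5 calls was lost without at least 1 single library: adjusted p reached 0.0641 for Ndnf, 0.120 for Dab1, 0.136 for Itgb1, 0.159 for Sst and 0.175 for Sox6. Npy was at 0.82 (adjusted p = 0.102) in this comparison. Vipr2, a receptor for VIP, had 1.52, 0.702 and 14.0 CPM in SE-WT, against 0.173, 0.235 and 0.219 CPM in sham-WT (4.65 ± 1.18, adjusted p = 0.0719), and DESeq2 called it. Its highest value was that of SE-WT replicate 3, the library high in thalamic genes. In the comparison of SE-cKO with SE-WT 0 of 59 were called, with 18 at an unadjusted p under 0.05 and 7 called by DESeq2. In that of sham-cKO with sham-WT 0 of 59 were called, with 6 at an unadjusted p under 0.05 and 0 called by DESeq2. In the interaction 0 of 60 were called, with 18 at an unadjusted p under 0.05 and 8 called by DESeq2. Abat was among the genes DESeq2 called in both the SE genotype comparison and the interaction, so edgeR and DESeq2 differed on it.

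**Figure D5:**
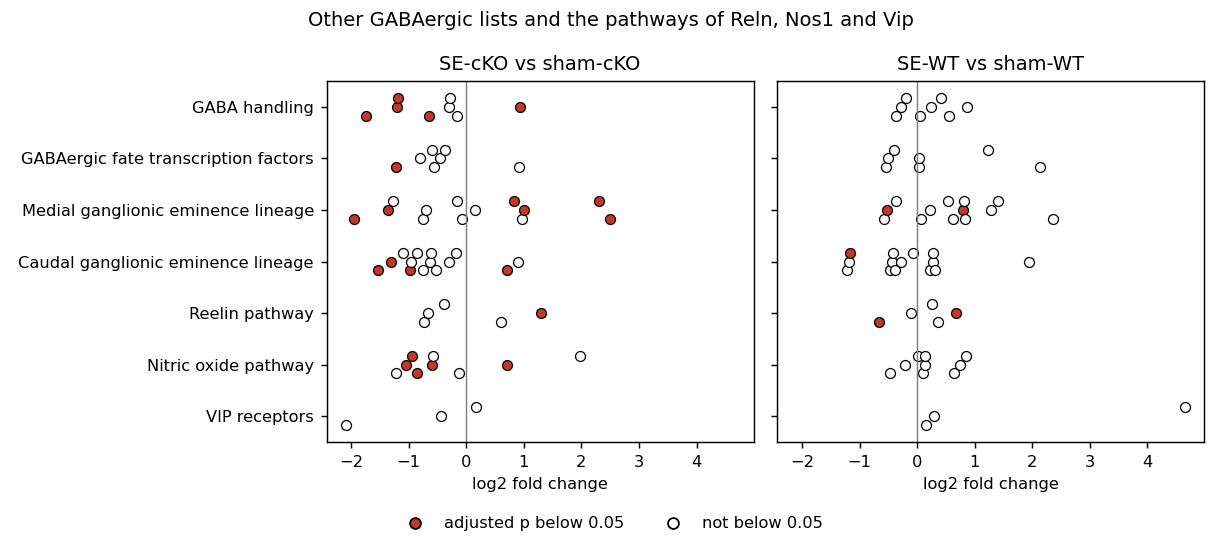
Log2 fold changes of the tested genes of the 7 lists in SE-cKO against sham-cKO and in SE-WT against sham-WT, with filled points for an adjusted p below 0.05. In SE-cKO 22 of 59 are filled, beside 22.7% of all genes tested, and in SE-WT 5 of 59, beside 5.4%.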

How the data were processed

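Per the labels, TruSeq stranded total RNA libraries were made from TRIzol-extracted hippocampal RNA. The submitters' processing notes name bcl2fastq 2.20.0, Trimmomatic, HISAT2 2.1.0, StringTie 2.1.3b and mm10. Strand settings in counting are not given in the sources used here. The authors deposited read counts, FPKM and TPM per gene. The deposited counts, whole numbers that were not normalized, were used for tests, the deposited TPM for levels between genes, and FPKM were not used.

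Counts were filtered with filterByExpr (minimum count 10, minimum total 15), scaled by TMM, and fitted in R 4.3.3 with edgeR 4.0.16 (glmQLFit, robust, and glmQLFTest), within the 2 groups of each comparison and over all 13 libraries for the interaction. P values were adjusted over all genes tested (Benjamini-Hochberg, threshold 0.05). The test was tried on simulated data. CPM use TMM-scaled totals, and log2 CPM a prior count of 2.

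The members and lists were chosen with earlier results of these data known. The text names every member, up to 4 genes of each other list per comparison with the smallest p, and the 5 genes most like the GABA genes. Some genes that this rule names are not reported here. Genes outside this rule (Slc6a11, Sst in SE-cKO, Kcnc2, Trp73, Lhx1, Lhx5, Drd1, Lhx8 and Xist) were chosen after their values were seen. The fold changes and calls of the members were recomputed without the filter, with RLE size factors, with DESeq2 1.42.0, in a fit of all groups, with the replicate number as a block, without each library in turn, without 3 libraries together, and with title style or Xist as a covariate. A fit within 1 title style was added after seeing the data.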

Additional observations from a re-analysis of the deposited data

Results flagged for a closer look

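In groups of 4 samples, the gap between the extreme library and its nearest neighbour was compared with the range of the group, a rule by which chance singles out about 1 group in 20. Only sham-cKO has 4 libraries, and 6 of 37 values tested there stood out, all in replicate 2. The values tested were the members, sums of marker lists and the list genes called in some comparison. They come from the same 4 libraries, and the thalamic sum is what set replicate 2 apart above. The count therefore cannot be set against the rate of 1 in 20. The summed thalamic genes were at 2369 CPM there, against 268 to 332 CPM in the other 3 sham-cKO libraries. Slc6a11 was at 176 CPM, against 51.4 to 55.1 CPM. Kcnc2, a potassium channel of fast-spiking cells, was at 380.0 CPM, against 126 to 137 CPM. Adarb2 was at 94.9 CPM, against 33.2 to 41.0 CPM. Dlx6os1 was at 17.1 CPM, against 38.0 to 39.1 CPM. Gucy1b1 was at 149.5 CPM, against 164 to 167 CPM. No member stood out by this rule.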

How the results depend on the processing

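In SE-cKO against sham-cKO all 9 members stayed below 0 under all 15 alternatives. Pvalb was called under 13 and Reln under 7 of them. The number of members called, 2 as reported, was 4 with DESeq2 and without the 3 libraries with high striatal or thalamic sums, 1 with the title style as a term and 1 with Xist as a covariate, and 0 to 4 with a library left out. In SE-WT against sham-WT it was 1, Pvalb, with Xist as a covariate, and 0 under the other alternatives. Replicate numbers did not pair the libraries, since same-numbered deviations correlated at -0.0836 to 0.289. With the number as a replicate block, 2 members were called in SE-cKO against sham-cKO, Pvalb and Calb2 (adjusted p = 0.0372), and not Reln (adjusted p = 0.0923).

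Signs turned only for fold changes that had not passed the test. In SE-WT against sham-WT, without the 3 libraries, Gad1 was -0.37, Gad2 -0.16, Slc32a1 -0.0081, Vip 0.81, Lhx6 -0.59, Reln 0.12 and Calb2 -2.02. Calb2 was -0.35 with the replicate block, -0.37 with the title style and -0.23 with Xist, and Lhx6 was -0.079 with the block. With a library left out, Gad1 ranged from -0.45 to 0.67, Vip from -1.85 to 0.15, Lhx6 from -0.60 to 0.32, Reln from -0.46 to 0.049 and Calb2 from -0.79 to 0.52. In SE-cKO against SE-WT, Vip was 0.020 with the block and ranged from -1.31 to 0.84 with a library left out, and without the 3 libraries Slc32a1 was 0.036 and Calb2 0.80. In sham-cKO against sham-WT, the block gave -0.13 for Gad1, -0.16 for Lhx6, -0.11 for Reln and -0.0015 for Nos1. With a library left out, Gad1 ranged from -0.11 to 0.17, Pvalb from -0.27 to 0.14, Lhx6 from -0.15 to 0.28, Reln from -0.038 to 0.29 and Nos1 from -0.12 to 0.31. In the interaction, Vip was 0.59 with the block, 0.40 with Xist and between -0.85 and 1.33 with a library left out, Pvalb was 0.078 with Xist, and Calb2 was 0.53 without the 3 libraries. The r of Vip with the GABA genes was -0.56, and 0.23 without SE-WT replicate 2. The cause of these changes was not tested. Within 1 title style, a fit added after seeing the data, all 9 members stayed below 0 in SE-cKO against SE-WT and in the interaction, with 0 called. That fit left out replicate 3 of SE-WT and of SE-cKO and kept SE-WT replicate 2, the library high in striatal genes. Groups of 3 or 4 libraries, and Lhx6, Vip and Calb2 levels that differed several-fold within groups, limit what could be seen.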
